A study of Mus musculus with 8 samples.

Results

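Cardiotoxin (CDTX), a snake venom toxin that kills muscle fibers and sets off regeneration, was compared with PBS injection in mouse gastrocnemius muscle, by setting 4 CDTX pools of RNA against the 4 PBS pools of the same surgery and day. All 8 of the 8 pools of the series belong to this comparison. The pairs were CDTX + SHAM with PBS + SHAM and CDTX + SCI with PBS + SCI, each at D2 and at D4, where SCI is a transection of the spinal cord and SHAM the control surgery. All mice were female C57Bl/6, aged 6 to 8 weeks by the methods of the study, and carried no engineered allele named in the labels. By the same methods each mouse received 12 µM CDTX in the left and PBS in the right gastrocnemius, so a PBS muscle lies opposite a CDTX muscle and is not a muscle of an untouched mouse. Each pool held RNA of 3 muscles. The mice behind a pool are not named, and whether both pools of a pair came from the same animals is unknown. There was 1 pool for each combination of injection, surgery and day, and the p-values below therefore measure the spread between pairs that differ in surgery and day.

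miRNAs were measured by RT-qPCR with 755 LNA assays, of which 752 target a miRNA. The value of an assay in a pool is its Cp, the PCR cycle at which the signal was quantified. An earlier Cp means more template, about 2-fold for each cycle, and 36 was the highest value recorded. The comparison took the assays that reached a Cp of 32 or earlier in all 8 pools, plus those that did so in all 4 pools of 1 injection, which gave 161 of the 752 assays. Of these, 123 were within the limit in all 8 pools, and 38 in all pools of 1 injection only. At the edge of the limit, the highest Cp over the pools was 32 for miR-1900 and 31.9 for miR-98-5p, both inside, and 32.05 for miR-146a-5p and for miR-674-3p, both outside. The log2 relative level of an assay is its distance in cycles below the mean of 3 references, miR-125b-5p, miR-23b-3p and miR-24-3p, which were left out of the test, which leaves 120 fitted assays. The log2 ratio of a pair is the level in its CDTX pool minus that in its PBS pool. The mean over the 4 pairs was tested in limma with the pair as a block, and an assay was called when its Benjamini-Hochberg adjusted p was under 0.05. Errors given with ± are the standard error of that fit unless named SD.

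A miRNA represses mRNAs that pair with its seed, bases 2 to 8 from the 5′ end, and miRNAs with 1 seed form a family with overlapping targets. Muscle fibers hold large amounts of a few miRNAs known as myomiRs, among them miR-1, miR-133a, miR-133b and miR-206, while other miRNAs mark blood-derived cells, such as miR-223 in myeloid cells and miR-142 in all hematopoietic lineages. After CDTX, fibers die, leukocytes enter the tissue, and myogenic progenitors multiply before they fuse to new fibers.

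The sequences of the miRNAs on which the results turn are those of RefSeq (assembly GRCm38.p6), written 5′ to 3′ with the seed in capitals. Each is identical to the target that the study lists for its assay. The first set holds miRNAs that rose after CDTX. miR-214 and miR-199a share a long noncoding transcript, Dnm3os, for their genes on chromosome 1.
miR-223-3p (chromosome X): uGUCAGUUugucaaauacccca
miR-142a-5p (chromosome 11): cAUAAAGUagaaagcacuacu
miR-21a-5p (chromosome 11): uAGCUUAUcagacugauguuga
miR-214-5p (chromosome 1): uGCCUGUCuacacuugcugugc
miR-214-3p (chromosome 1): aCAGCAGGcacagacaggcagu
miR-199a-5p (chromosomes 1 and 9): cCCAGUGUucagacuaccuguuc

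The next set shows seed families whose fitted members all moved one way. The fitted members of the miR-17 family, which all rose, share the seed AAAGUGC and lie in clusters on chromosomes 14 and 5. The fitted 5p members of the miR-30 family, which all fell, share the seed GUAAACA.
miR-17-5p: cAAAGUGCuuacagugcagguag
miR-20a-5p: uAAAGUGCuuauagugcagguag
miR-93-5p: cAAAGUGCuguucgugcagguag
miR-106b-5p: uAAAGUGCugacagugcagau
miR-30a-5p: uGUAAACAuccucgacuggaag
miR-30c-5p: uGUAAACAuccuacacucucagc
miR-30e-5p: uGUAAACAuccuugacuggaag

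The third set shows miRNAs with 1 seed that moved in opposite directions, miR-15a-5p up and miR-195a-5p down with AGCAGCA, and miR-99b-5p up and miR-100-5p down with ACCCGUA.
miR-15a-5p (chromosome 14): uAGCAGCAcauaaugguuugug
miR-195a-5p (chromosome 11): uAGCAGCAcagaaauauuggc
miR-99b-5p (chromosome 17): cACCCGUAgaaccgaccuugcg
miR-100-5p (chromosome 9): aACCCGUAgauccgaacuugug

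The last set holds a myomiR that fell throughout (miR-133b), miRNAs whose response differed between the days (miR-206, miR-34a, miR-10b, miR-126a), and miRNAs within the Cp limit in all CDTX pools but not in all PBS pools (miR-142a-3p, miR-18a, miR-221, miR-31).
miR-133b-3p (chromosome 1): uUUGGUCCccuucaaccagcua
miR-206-3p (chromosome 1): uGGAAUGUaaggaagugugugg
miR-34a-5p (chromosome 4): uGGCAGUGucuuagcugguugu
miR-10b-5p (chromosome 2): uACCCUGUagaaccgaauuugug
miR-126a-3p (chromosome 2): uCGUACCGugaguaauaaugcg
miR-142a-3p (chromosome 11): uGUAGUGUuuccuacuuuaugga
miR-18a-5p (chromosome 14): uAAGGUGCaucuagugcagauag
miR-221-3p (chromosome X): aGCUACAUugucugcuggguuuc
miR-31-5p (chromosome 4): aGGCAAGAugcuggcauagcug

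CDTX changed most of the miRNAs that could be measured in all pools, and in both directions. Of the 120 fitted assays, 86 (71.7%) were called, 41 higher (34.2%) and 45 lower (37.5%) after CDTX. A called change of at least 2-fold was found for 25 assays that were higher (20.8%) and 26 that were lower (21.7%). The leukocyte miRNAs miR-223-3p and miR-142-5p rose most, by 11.9-fold and 12.5-fold, and the myomiRs miR-133a-3p and miR-1-3p fell most, to levels 4.21-fold and 8.48-fold lower. The sign was the same in all 4 pairs for 93 assays, 45 higher and 48 lower. The levels in the 4 CDTX pools did not overlap those in the 4 PBS pools for 80 assays (66.7%), with CDTX above PBS for 38 and below for 42. The log2 ratio had a median SD over the pairs of 0.39 and a median over all fitted assays of 0.04. Across assays, Pearson's r between the log2 ratios of 2 pairs ranged from 0.83 to 0.97, a description over 120 assays that share references and pools.

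The balance between rises and falls depends on the reference, since CDTX and PBS pools differed in the Cp of the references themselves. The split was 41 higher and 45 lower with the 3 references of the methods, 29 and 56 with miR-24-3p alone, 54 and 35 with miR-23b-3p alone, 32 and 54 with the deposited ratios, 22 and 55 with Cp as deposited, and 8 and 52 with the mean of the 3 small nuclear RNAs of the panel, an alternative chosen after seeing the data. The median log2 ratio over all fitted assays was -0.28 with miR-24-3p, 0.30 with miR-23b-3p, -0.41 with Cp as deposited and -0.88 with the small nuclear RNAs. All 45 assays called lower kept that direction under each of 7 other scalings, and 35 of them kept the call under each. Of the 41 called higher, 28 kept the direction under each, while 13 with a mean log2 ratio below 0.94 turned negative with the small nuclear RNAs. Only 8 kept the call under every scaling, and 22 kept it when Cp was used as deposited.

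**Figure D1:**
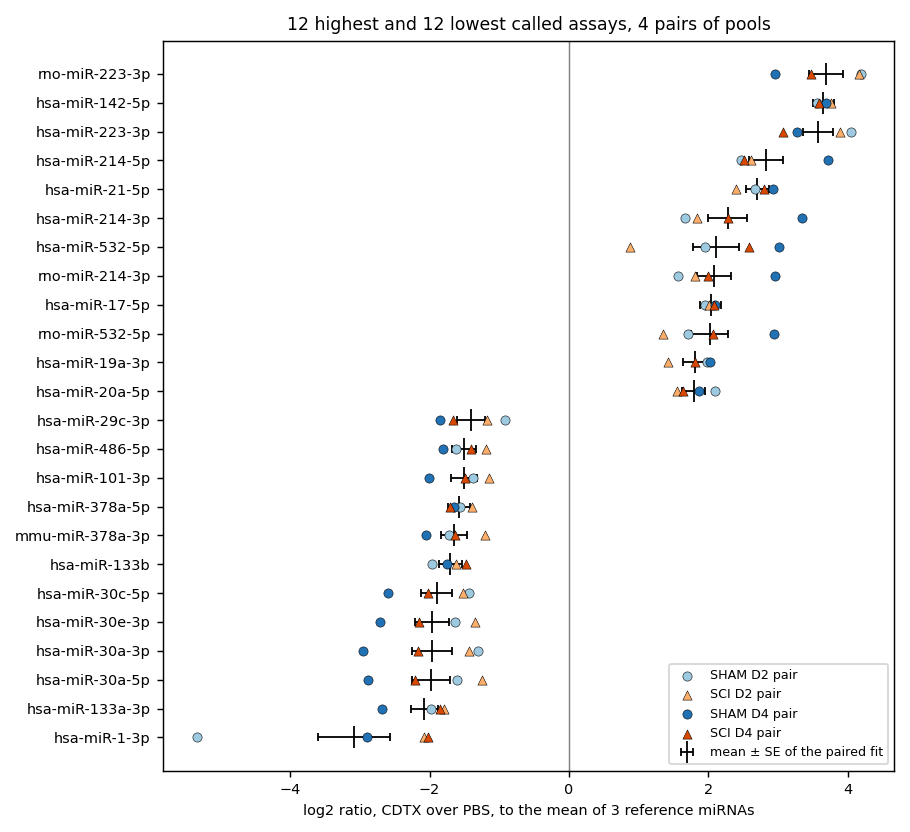
Log2 ratio of CDTX over PBS (x axis) in each of the 4 pairs (points) with the mean and the SE of the paired fit (black bars), for the 12 highest and 12 lowest called assays, with the assay names of the panel. In every one of these assays all 4 pairs lie on one side of 0, and miR-1-3p in the SHAM D2 pair (-5.34) stands apart from its other pairs.

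The leukocyte miRNAs had the highest median of the lists that were described. Of 10 leukocyte assays on the panel 5 were fitted. Of these, 4 were called higher and 1 lower, against 34.2% and 37.5% of all fitted assays. Their median log2 ratio was 3.57, against 0.04 over all fitted assays. Their summed log2 level ranged from -1.21 to -1.09 over the PBS pools and from 0.96 to 1.83 over the CDTX pools. In whole muscle, more cells of a type and more RNA per cell cannot be told apart.

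miR-142-5p, made in hematopoietic cells, had log2 levels of -3.22, -4.19, -3.87 and -3.77 in the PBS pools (SHAM D2, SCI D2, SHAM D4, SCI D4, an order kept below) and of 0.34, -0.44, -0.18 and -0.18 in the CDTX pools. The lowest CDTX pool lay far above the highest PBS pool. The mean log2 ratio was 3.65 ± 0.15 (n = 4 pairs, adjusted p = 2.91e-06), with nearly the same ratio in each pair, from 3.56 to 3.75. miR-223-3p, a myeloid miRNA abundant in neutrophils, had levels of -3.42, -3.67, -3.81 and -3.43 with PBS and of 0.62, 0.22, -0.54 and -0.35 with CDTX. Here too the groups were far apart, and both D4 CDTX pools lay below both D2 CDTX pools. The mean log2 ratio was 3.57 ± 0.21 (adjusted p = 1.69e-05), and the rat-named assay of the same miRNA gave 3.69 ± 0.24 (adjusted p = 1.84e-05).

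miR-342-3p, which is enriched in lymphoid and other leukocytes, rose less, by 1.37 ± 0.20 (adjusted p = 0.000708). With the small nuclear RNAs as reference it was not called (0.44, adjusted p = 0.454), which left 3 of the 5 leukocyte assays called higher. miR-150-5p, a miRNA of mature lymphocytes, moved the other way. Its log2 ratios were 0.01, -0.22, -1.70 and -1.40, so that it was lower at D4 but showed hardly any difference at D2. The mean of -0.83 ± 0.31 (adjusted p = 0.0414) was no longer called without the SHAM D4 pair (-0.53) or without the SCI D4 pair (-0.64), nor in the fit without the pair block (adjusted p = 0.0516). Of the other leukocyte assays, miR-155-5p stayed at a Cp of 34.11 or later in every pool. miR-142-3p, miR-146a-5p and the rat-named assay of miR-146b-5p were within the limit in all CDTX pools only and are described below.

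miR-21-5p, which is induced in many injured and inflamed tissues, was among the most changed of all. Its log2 levels were -0.83, -1.12, -0.72 and -0.78 with PBS and 1.84, 1.27, 2.21 and 2.03 with CDTX. Every CDTX pool was at least 2 log2 units above every PBS pool apart from the SCI D2 pool, which was the lowest of the CDTX pools. The mean log2 ratio was 2.70 ± 0.17, a 6.49-fold rise (adjusted p = 1.69e-05).

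All assays of the Dnm3os list (miR-214, miR-199a and miR-199b) rose after CDTX. The Dnm3os transcript is made in fibroblasts and other mesenchymal cells, but the rise cannot be credited to it alone. miR-199a-5p also matches a gene on chromosome 9, and miR-199a-3p genes on chromosomes 2 and 9. miR-199b-5p was not placed at a RefSeq gene and is in this list by its name only. Of 6 assays 6 were called higher, against 34.2% of all fitted assays, with a median log2 ratio of 1.90 (1.38 at D2 and 2.41 at D4). All 6 kept a positive sign under each of the 7 other scalings, but with the small nuclear RNAs only the 3 miR-214 assays were called. miR-214-5p had levels of -6.56, -6.79, -6.41 and -6.15 with PBS and of -4.10, -4.19, -2.70 and -3.63 with CDTX, a mean log2 ratio of 2.82 ± 0.24 (adjusted p = 8.56e-05). The SHAM D4 pool was the highest of the CDTX pools. miR-214-3p rose by 2.28 ± 0.28 on its first assay (adjusted p = 0.000387) and by 2.08 ± 0.24 on the rat-named one (adjusted p = 0.00032). miR-199a-5p rose by 1.71 ± 0.28, miR-199a-3p by 1.08 ± 0.26 and miR-199b-5p by 0.97 ± 0.22. In each of these assays the SHAM D4 pair showed the highest ratio.

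The miR-17~92 cluster and its paralogs, which drive proliferation, rose as well. Of 23 assays on the panel 8 were fitted, at a median log2 ratio of 1.13. Of the 8, 7 were called higher and 0 lower, against 34.2% and 37.5% of all fitted assays. These 7 kept a positive sign under each of the 7 other scalings, although none was called with the small nuclear RNAs. miR-17-5p had levels of -4.78, -5.01, -5.09 and -4.63 with PBS and from -3.01 to -2.54 with CDTX. The pairs were close to each other, with log2 ratios from 1.95 to 2.09 and a mean of 2.03 ± 0.15 (adjusted p = 4.07e-05). miR-19a-3p (1.81 ± 0.17) and miR-20a-5p (1.79 ± 0.17) of the same cluster followed. miR-93-5p (1.21 ± 0.15), miR-106b-5p (1.05 ± 0.18), miR-19b-3p (1.04 ± 0.16) and miR-92a-3p (0.98 ± 0.23) rose by less. miR-25-3p, a member of the cluster of miR-93 and miR-106b, was not called at 0.28 ± 0.27, with a ratio of -0.79 in the SHAM D2 pair and of 0.50 to 0.76 in the others.

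The fitted miRNAs of the Clcn5 intron on chromosome X also rose. Of 11 assays on the panel, 6 were not within the limit in all pools of either injection. A further 1, miR-501-5p, was so in all PBS pools only and is described below. The 4 fitted assays, all of the hairpins of miR-532 and miR-362, were called higher, against 34.2% of all fitted assays. Their median log2 ratio was 1.76, which was 1.11 at D2 and 2.40 at D4. They kept a positive sign under the 7 other scalings, with 1 call under the small nuclear RNAs. miR-532-5p had log2 ratios of 1.95, 0.87, 3.01 and 2.58, a mean of 2.10 ± 0.33 (adjusted p = 0.000927), and its rat-named assay gave 2.02 ± 0.26 (adjusted p = 0.000444). miR-362-3p (2.82-fold) and miR-532-3p (2.74-fold) had their highest ratios at D4. miR-34a-5p, a target of p53, was the only fitted member of the miR-34 family and rose by 1.76 ± 0.39 (adjusted p = 0.00541). Its log2 ratio in the SCI D2 pair was 0.44. In limma it was not called with the small nuclear RNAs (0.83, adjusted p = 0.151) or with the ordinary variance (adjusted p = 0.0825).

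The myomiRs fell, with 1 exception. Of 10 striated muscle assays 5 were fitted and 4 were called lower, against 37.5% of all fitted assays, at a median log2 ratio of -1.70. Their summed log2 level ranged from 6.06 to 6.68 over the PBS pools and from 4.01 to 4.62 over the CDTX pools. miR-133a-3p had the lowest Cp of all assays, 19.74 in the PBS + SHAM pool of D2. Its log2 levels were 4.94, 5.01, 5.34 and 4.57 with PBS and 2.96, 3.22, 2.66 and 2.73 with CDTX, a gap between the groups that is wider than the spread within either. The mean log2 ratio was -2.07 ± 0.20 (adjusted p = 0.000125). miR-133b, which shares its seed, fell by 1.70 ± 0.16 on the log2 scale (adjusted p = 0.000125), with ratios from -1.96 to -1.48.

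miR-1-3p had levels of 4.60, 4.69, 4.86 and 4.13 with PBS and of -0.74, 2.61, 1.97 and 2.11 with CDTX. All CDTX pools lay below all PBS pools, and the CDTX + SHAM pool of D2 lay far below the others. The mean log2 ratio was -3.08 ± 0.51 (adjusted p = 0.0012), and -2.33 without the SHAM D2 pair. A second assay, named for rat miR-1-3p, had a much later Cp of 30.29 to 31.18 with PBS and 32.84 to 33.55 with CDTX, and gave a ratio of -1.77 in the SHAM D2 pair and of -2.05 on average. miR-206, a myomiR of regenerating fibers, was not called at -0.06 ± 0.50, with a negative ratio at D2 and a positive one at D4, as described below. miR-208b-3p and miR-499a-5p, myomiRs of slow fibers and heart, stayed at a Cp of 33.73 or later.

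**Figure D2:**
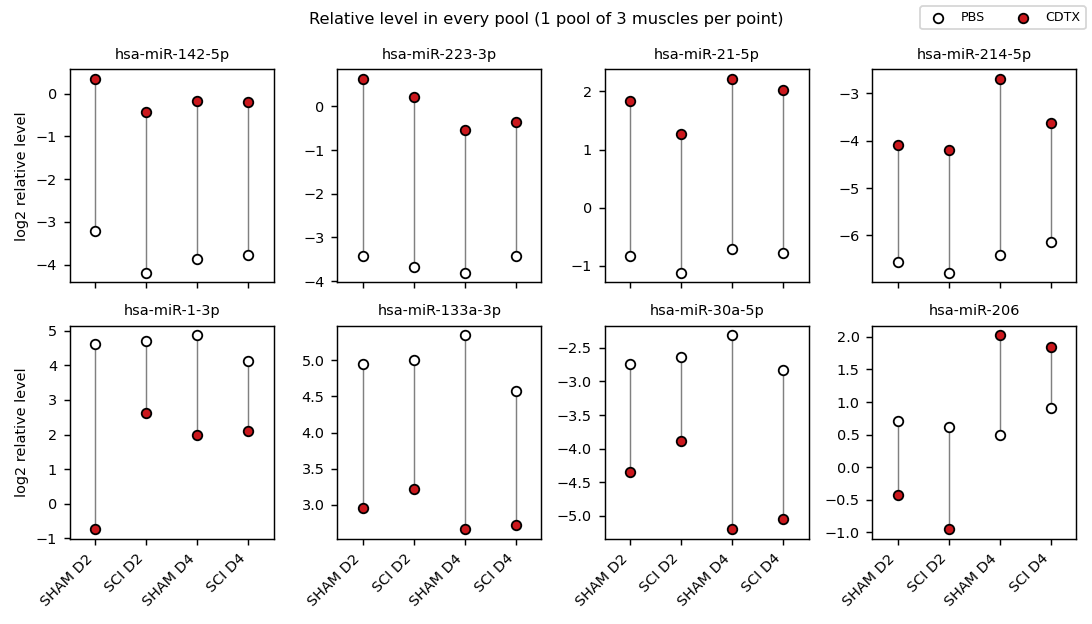
Log2 relative level (y axis, own scale in each panel) of 8 assays in every pool, by pair (x axis). White circles are PBS pools, red circles CDTX pools, and a line joins the pools of a pair. The upper 4 assays are higher with CDTX in every pair, miR-133a-3p, miR-30a-5p and miR-1-3p are lower in every pair, and miR-206 is lower at D2 and higher at D4.

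All fitted assays of the miR-30 family fell. Of 10 assays on the panel 7 were fitted and 7 were called lower, against 37.5% of all fitted assays. The median log2 ratio was -1.90 (-1.37 at D2 and -2.31 at D4), and all 7 calls held under each of the 7 other scalings. miR-30a-5p had levels of -2.75, -2.64, -2.32 and -2.84 with PBS and of -4.35, -3.89, -5.20 and -5.04 with CDTX, a mean log2 ratio of -1.98 ± 0.27 (adjusted p = 0.000535). The D4 CDTX pools were the lowest, and the groups did not overlap. The other arm of the hairpin, miR-30a-3p, gave almost the same mean, -1.97 ± 0.28. miR-30c-5p fell by 1.90 ± 0.23 and miR-30e-3p by 1.96 ± 0.24 on the log2 scale. miR-30b-5p (-1.08 ± 0.17), miR-30d-5p (-1.05 ± 0.20) and miR-30e-5p (-1.04 ± 0.23) fell by less.

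In 5 further lists, chosen with earlier results known, 0 assays were called higher. Called lower were 3 of 3 fitted assays of miR-378 and miR-486 and 3 of 3 of miR-26 and miR-101. The others had 1 of 3 (miR-29), 2 of 3 (miR-10 and miR-196) and 1 of 2 (miR-181), against 37.5% lower over all fitted assays. miR-378a, which lies in an intron of Ppargc1b and is tied to oxidative metabolism, fell on both arms, by 1.65 ± 0.19 (miR-378a-3p) and 1.58 ± 0.16 (miR-378a-5p) on the log2 scale. miR-486-5p, present in muscle and in red blood cells, fell by 1.51 ± 0.17. The red cell miRNA miR-451a stayed at a Cp of 33.12 or later in every pool, and miR-144-3p, its neighbour, had a mean log2 ratio of -0.02. miR-101-3p (-1.51 ± 0.19), miR-101b-3p (-1.36 ± 0.20) and miR-26a-5p (-1.30 ± 0.19), all known to repress the histone methyltransferase Ezh2, fell in all pairs. miR-29c-3p, of a family that represses collagen genes, fell by 1.40 ± 0.20 (adjusted p = 0.000705), whereas miR-29a-3p (-0.22 ± 0.17) and miR-29a-5p (-0.41 ± 0.23) were not called. Of the Hox cluster miRNAs, miR-196a-5p (-1.24 ± 0.17) and miR-10b-5p (-1.15 ± 0.29) fell, and miR-196b-5p (-0.35 ± 0.18) was not called. miR-181a-5p fell by 0.86 ± 0.21, and miR-181b-5p, with the same seed and sign, was not called at -0.42 ± 0.22. miR-181a-5p itself was not called with miR-23b-3p alone as reference (-0.61, adjusted p = 0.0526).

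The 1 fitted assay of the endothelial list and the 3 of the smooth muscle and fibroblast list were called lower, against 37.5% of all fitted assays. With miR-23b-3p alone as reference, however, miR-145-5p was the only one of them called (-0.76, adjusted p = 0.0467). miR-126-3p, made in endothelial cells, had log2 ratios of -0.41, -0.04, -1.47 and -1.15, so that it differed mainly at D4. Its mean of -0.77 ± 0.26 (adjusted p = 0.0287) was not called without the SHAM D4 pair (-0.53) or without the SCI D4 pair (-0.64), nor without the pair block (adjusted p = 0.0521). miR-145-5p (-1.01 ± 0.24), found in fibroblasts and smooth muscle, and its cluster partner miR-143-3p on both assays (-0.73 ± 0.19 and -0.85 ± 0.20, the latter on the rat-named assay) were lower in all 4 pairs. With that reference miR-126-3p had a mean of -0.52 (adjusted p = 0.159) and the miR-143-3p assays of -0.48 (adjusted p = 0.0772) and, rat-named, -0.60 (adjusted p = 0.0541). The first miR-143-3p assay was not called without the SCI D4 pair (-0.65). The neuronal, epithelial and liver lists had 0 fitted assays. The liver miRNA miR-122-5p stood at 36 in all pools, and the 8 epithelial assays never came before a Cp of 32.23.

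The imprinted Dlk1-Dio3 cluster of chromosome 12, which holds many miRNAs expressed in stem and progenitor cells, was mixed. Of 73 assays 10 were fitted, with 6 called lower, 0 higher and 4 not called, at a median log2 ratio of -0.75. Over all fitted assays 37.5% were called lower and 34.2% higher. miR-434-3p fell by 1.39 ± 0.17, miR-136-5p by 1.37 ± 0.21 and 1.36 ± 0.22 on its mouse-named and human-named assays, miR-299-5p by 1.33 ± 0.18 and miR-136-3p by 0.94 ± 0.17 on the log2 scale. miR-154-5p, called at -0.57 ± 0.18, lost the call without the SHAM D2, the SCI D2 or the SCI D4 pair, with means from -0.53 to -0.52. It also lost the call with miR-23b-3p alone (-0.32) or miR-125b-5p alone (-0.50) as reference. miR-127-3p (0.46 ± 0.26), miR-379-5p (0.31 ± 0.30), miR-434-5p (-0.09 ± 0.23) and miR-411-5p (-0.45 ± 0.20) were not called.

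**Figure D3:**
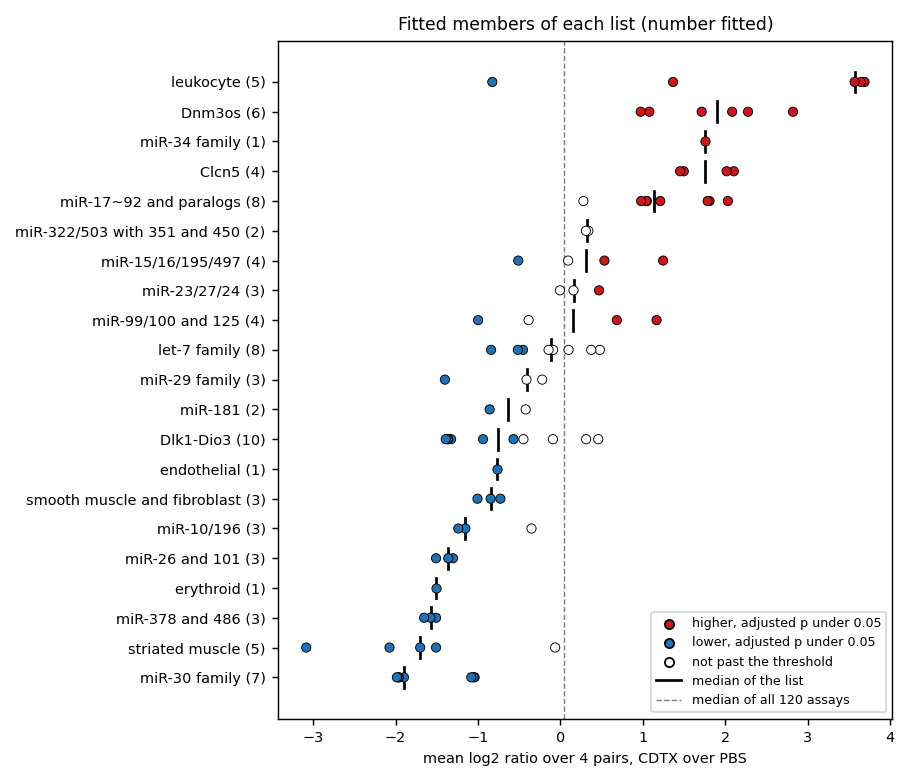
Mean log2 ratio of CDTX over PBS over the 4 pairs (x axis) for every fitted assay of each list, with the number fitted in brackets. Red points are called higher, blue points called lower and white points not called, a black bar is the median of the list and the dashed line the median of all 120 assays (0.04). The leukocyte, Dnm3os, Clcn5 and miR-17~92 lists lie mostly to the right, and the miR-30 and striated muscle lists to the left.

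Sharing a seed did not fix the direction. The fitted assays held 18 seeds shared by at least 2 miRNAs, covering 51 assays. All members were called higher for 3 of these seeds and lower for 4, and 2 seeds had members called in both directions. With the seed AGCAGCA, miR-15a-5p rose by 1.25 ± 0.22 (adjusted p = 0.00165) and miR-16-5p by 0.53 ± 0.16, while miR-195-5p fell by 0.51 ± 0.19 on the log2 scale (adjusted p = 0.0418) and miR-497-5p (0.09 ± 0.17) and miR-322-5p (0.34 ± 0.21) were not called. miR-195-5p lost its call without the SHAM D2, SHAM D4 or SCI D4 pair (-0.50 to -0.42) and without the pair block (adjusted p = 0.0532). It also lost it with miR-23b-3p alone (-0.26) or miR-125b-5p alone (-0.44) as reference, and with a variance trend or the ordinary variance. miR-16-5p lost its call without the SHAM D2 (0.50) or SCI D4 (0.55) pair. The same held with miR-24-3p alone (0.215), Cp as deposited (0.08) and the deposited ratios (0.30). The sign of miR-16-5p turned with the small nuclear RNAs (-0.39). With the seed ACCCGUA, miR-99b-5p rose by 1.17 ± 0.16 (adjusted p = 0.000515), miR-100-5p fell, with log2 ratios of -0.93, -0.57, -1.52 and -0.98 (adjusted p = 0.00274), and miR-99a-5p was not called at -0.39 ± 0.16. miR-99b-5p stayed positive under all 7 other scalings, and miR-100-5p kept its call under each.

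The largest seed family, let-7 with miR-98 (GAGGUAG), whose members promote differentiation, was mostly not called. Of 8 fitted assays 2 were called lower and 0 higher, against 37.5% and 34.2% of all fitted assays. The ratios ran from let-7e-5p (0.48 ± 0.24, not called) to let-7g-5p (-0.52 ± 0.16, adjusted p = 0.0214). let-7e-5p was called higher without the SHAM D2 pair (0.67) and turned negative with the small nuclear RNAs (-0.45). Without 1 pair, let-7g-5p lost its call in 3 of the 4 cases (-0.56 to -0.43), and so did let-7d-5p (-0.45 ± 0.16, -0.50 to -0.36 without 1 pair). Both also lost it with miR-23b-3p alone or with miR-125b-5p alone as reference. let-7d-3p, from the other arm and with another seed, fell by 0.84 ± 0.20. Of the clusters that hold the references, miR-27a-3p rose by 0.47 ± 0.16 (adjusted p = 0.029), lost the call without any 1 pair (0.43 to 0.54) and turned to -0.46 with the small nuclear RNAs, while miR-23a-3p (0.16 ± 0.16) and miR-27b-3p (-0.01 ± 0.17) were not called. miR-125a-5p, a paralog of the reference miR-125b-5p, rose by 0.68 ± 0.16 with these references and turned to -0.24 with the small nuclear RNAs.

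Both arms were fitted for 11 hairpins. Both were called in the same direction for 9, none had arms called in opposite directions, 1 had 1 called arm and 1 none. Over all fitted assays 71.7% were called. The widest gap was that of miR-434, where the 5p arm stayed near 0 and the 3p arm fell, a difference of 1.30 (SD 0.75, n = 4 pairs) that was positive in 4 of 4 pairs. In miR-30e the 3p arm fell by more than the 5p arm, with a difference of 0.92 (SD 0.59). In miR-214 the 5p arm exceeded the 3p arm by 0.74 (SD 0.16) on the rat-named 3p assay and by 0.55 (SD 0.28) on the human-named one, in miR-199a by 0.64 (SD 0.22) and in miR-532 by 0.65 (SD 0.45), each in 4 of 4 pairs. For 6 miRNAs that had 2 fitted assays, the mean log2 ratios of the assays differed by at most 0.19, with a root mean square of 0.11.

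Neither GC content nor position entered the choice of members. The median GC content of the target was 45.5% for the falls, 50% for the rises and 47.6% for assays not called. Among the assays that could be placed at RefSeq genes, 5 of 36 called higher lay on chromosome X alone, against 0 of 29 called lower and 4 of 32 not called. The 5 include both assays of miR-223-3p. They leave out miR-19b-3p and miR-92a-3p, with genes on chromosomes 14 and X, and both miR-532-5p assays, which were not placed. These are descriptions, and assays of 1 cluster are not independent.

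The 38 assays within the limit on 1 side only passed the rule through the side where they were measurable, so their differences were not tested. They were 13 assays within it in all CDTX pools and 25 in all PBS pools. All 13 of the CDTX side had a higher level with CDTX in all 4 pairs, with mean log2 ratios from 0.95 to 5.60. For a bound, a Cp past 32 was set to 32. The 8 assays with the largest bounds were all of the CDTX side. miR-142-3p, from the other arm of the hairpin of miR-142-5p, had a Cp of 31.56, 32.65, 32.83 and 32.38 with PBS and of 28.53, 29.18, 28.82 and 28.83 with CDTX, at least 11.3-fold higher. miR-18a-5p, a neighbour of miR-17, had a Cp of 31.96, 32.83, 33.07 and 32.02 with PBS and of 29.13, 29.60, 29.13 and 28.79 with CDTX, at least 9.72-fold higher. In both, no CDTX pool came within 2 cycles of any PBS pool.

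miR-221-3p, an X-linked miRNA of dividing cells, was at least 9.07-fold higher, with a Cp of 31.41 to 32.16 with PBS and of 28.50 to 29.28 with CDTX. miR-222-3p, its cluster partner, was at least 3.66-fold higher. miR-31-5p, which represses Myf5 in quiescent satellite cells, was past the limit in all PBS pools (33.95, 35.22, 35.03 and 36) and came at 30.82, 31.11, 28.66 and 29.01 with CDTX, at least 5.87-fold higher, with the earliest signals at D4. miR-2137 (at least 7.95-fold), miR-15b-5p (4.28-fold) and miR-1949 (4.26-fold) completed the 8. Among the leukocyte assays, miR-146b-5p on the rat-named assay was at least 3.57-fold and miR-146a-5p at least 2.06-fold higher. The human-named miR-146b-5p assay was past the limit in part of both groups (32.09 to 32.98 with PBS, 31.50 to 32.29 with CDTX).

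Of the 25 assays of the PBS side, 15 were lower with CDTX in all 4 pairs, and their mean log2 ratios ran from -2.52 to 0.98, so that the side did not fix the direction. miR-486-3p was at least 3.44-fold lower, and miR-133a-5p, the other arm of the myomiR, at least 2.85-fold and 2.61-fold lower on its human-named and mouse-named assays. let-7f-5p entered this side through 1 pool. It had a Cp of 26.22, 26.38, 26.86 and 26.88 with PBS, and of 35.82, 27.71, 27.58 and 27.12 with CDTX. Its mean log2 ratio was -2.52, and -0.44 without the SHAM D2 pair. miR-501-5p, of the Clcn5 intron, was of the PBS side through the CDTX + SCI pool of D2 alone (32.42). miR-483-3p, of Igf2, was so through both CDTX pools of D2 (34.88 and 34.58). At D2 the log2 ratios were 0.72 and -0.40 for miR-501-5p and -2.67 and -2.58 for miR-483-3p. At D4 their log2 ratios were positive, 1.77 and 1.83 for miR-501-5p and 2.48 and 0.97 for miR-483-3p.

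The response to CDTX differed between D2 and D4 for 10 assays (8.33% of the 120), 7 with a higher ratio at D4 and 3 with a lower one, by the interaction of injection and day. miR-206 was lower at D2 and higher at D4, except with the small nuclear RNAs as reference. Its log2 levels with PBS were 0.70, 0.62, 0.49 and 0.91, and with CDTX -0.44 and -0.96 at D2 and 2.02 and 1.85 at D4. Both D2 CDTX pools lay below all PBS pools, and both D4 CDTX pools above them. With the small nuclear RNAs the log2 ratios were -1.37 and -1.57 at D2 and -0.50 and -0.51 at D4, lower on both days. With the 3 references of the methods the difference between the days was 2.59 ± 0.30 on the log2 scale (95% interval 1.89 to 3.29, adjusted p = 0.00664).

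Of the other assays with a higher ratio at D4, miR-34a-5p went from 0.80 to 2.72 (difference 1.92 ± 0.31), miR-362-3p from 0.69 to 2.30, miR-532-3p from 0.81 to 2.10 and miR-199a-5p from 1.08 to 2.35. miR-379-5p (-0.40 at D2, 1.02 at D4) and miR-127-3p (-0.08 at D2, 1.24 and 0.76 in the D4 pairs), of the Dlk1-Dio3 cluster, were above PBS at D4 only. The assays with a lower ratio at D4 were miR-150-5p (-0.10 to -1.55), miR-10b-5p (-0.51 to -1.79) and miR-126-3p (-0.22 to -1.31). Before adjustment 45 assays had a p under 0.05. No called miRNA of the main comparison had mean ratios of opposite sign on the 2 days. That call counts a difference between the days as error and so disfavors assays that change sign, such as miR-206. It therefore cannot show whether the days share a direction.

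These calls between the days changed with the model, the pairs and the reference used. With the interaction of injection and surgery in the same fit, miR-206 alone was called (adjusted p = 0.0353), and with the ordinary variance in place of the moderated one 0 were. Without the SHAM D2 or without the SCI D2 pair 0 assays were called, 3 without the SHAM D4 pair and 22 without the SCI D4 pair. With miR-24-3p alone as reference 0 were called, with miR-125b-5p alone 44, and with the small nuclear RNAs 98, of which 97 had a lower ratio at D4. With the small nuclear RNAs only miR-206 and miR-34a-5p of the 7 kept a higher ratio at D4, while miR-199a-5p, miR-362-3p, miR-532-3p, miR-127-3p and miR-379-5p turned negative and the 3 with a lower ratio stayed lower.

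**Figure D4:**
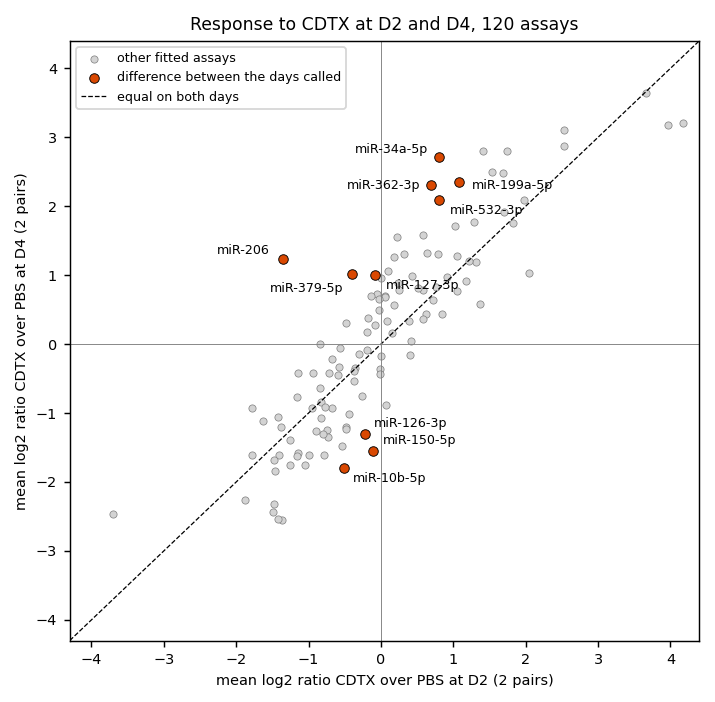
Mean log2 ratio of CDTX over PBS over the 2 pairs of D2 (x axis) and of D4 (y axis) for the 120 fitted assays. The dashed line marks equal ratios, and the orange points are the 10 assays whose difference between the days was called. miR-206 is the called assay in the upper left part farthest from the line, negative at D2 and positive at D4 (negative on both days with the small nuclear RNAs as reference).

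The size of the response changed between days more than between surgeries. The median absolute difference of the log2 ratios was 0.25 between the 2 pairs of D2, 0.23 between the 2 pairs of D4, and 0.50 between the mean of D4 and that of D2. Among the called assays, 59 of 86 had the larger ratio in size at D4. The median went from 1.05 at D2 to 1.32 at D4 for the rises, and from -0.95 to -1.30 for the falls. These medians depend on the reference. With the small nuclear RNAs the median of the same rises went from 0.94 at D2 to -0.42 at D4 and that of the falls from -1.07 to -3.04. With Cp as deposited the falls were less deep at D4 (-1.71 and -1.45), and nearly equal on both days with miR-125b-5p alone (-1.07 and -1.05). The count with the larger size at D4 was 51 to 61 over the 7 other scalings.

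No assay was called different between the surgeries in its response to CDTX (0 called, 0% of 120, in limma), and 1 had an unadjusted p under 0.05. The SCI pairs showed smaller ratios in size than the SHAM pairs for 67 of the 86 called assays, with 36 of 41 rises smaller and 31 of 45 falls less deep. The median rise was 1.29 in the SHAM pairs and 1.13 in the SCI pairs, and the median fall -1.21 and -1.10. The rises that were smaller with SCI numbered 34 to 40 with the global mean, with each reference miRNA alone and with the deposited ratios, but 22 with Cp as deposited and 10 with the small nuclear RNAs, where the median rise was 0.16 in SHAM and 0.42 in SCI. The falls less deep with SCI numbered 22 with miR-24-3p alone and 31 to 43 under the other 6 scalings. The 95% interval of the difference reached past 1 log2 unit on at least 1 side for 110 of the 120 assays, with a median width to either side of 1.06, so a 2-fold difference between the surgeries was not excluded for these. With the interaction of injection and day in the same fit 0 were called and 4 had an unadjusted p under 0.05. The smallest p was that of miR-1-3p, whose response was -4.11 in SHAM and -2.05 in SCI, a difference of 2.06 ± 0.81 (95% interval 0.05 to 4.08, adjusted p = 0.973) with -5.34 in the SHAM D2 pair and -2.89 in the SHAM D4 pair. let-7d-3p (-0.70 ± 0.35), miR-338-3p on the rat-named assay (-0.95 ± 0.52), miR-15a-5p (-0.61 ± 0.44) and miR-299-5p (-0.48 ± 0.36) followed, all with an adjusted p of 0.973.

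The number of detected miRNA assays moved in opposite directions on the 2 days. At a Cp of 32 or earlier, the PBS pools held up to 170 miRNA assays and the CDTX pools 152 to 178. CDTX pools held fewer than their PBS pools at D2 (differences of -15 and -17) and more at D4 (24 and 21). The mean difference was 3.25 (SD 22.3, n = 4 pairs, exact sign-flip permutation p = 0.75, two-sided, where 0.125 is the smallest p that 4 pairs allow). The mean Cp of the 3 references was later with CDTX in all 4 pairs, by 0.86, 0.65, 0.26 and 0.04 cycles, a mean of 0.45 (SD 0.37, exact p = 0.125). Relative to their own mean, miR-24-3p rose by 0.32 (SD 0.11) and miR-23b-3p fell by 0.25 (SD 0.14), each in 4 of 4 pairs, and miR-125b-5p had a mean of -0.07 (SD 0.22).

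The 3 small nuclear RNAs moved with the day as well. Their mean Cp was later with CDTX by 0.63 and 0.66 cycles at D2 and earlier by 1.77 and 1.40 cycles at D4. U6 had a Cp of 31.41, 31.62, 32.27 and 31.60 with PBS and of 31.74, 32.83, 29.53 and 29.41 with CDTX. Both D4 CDTX pools came earlier than every other pool. The part of these shifts in the calls was not tested beyond the scalings given above.

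**Figure D5:**
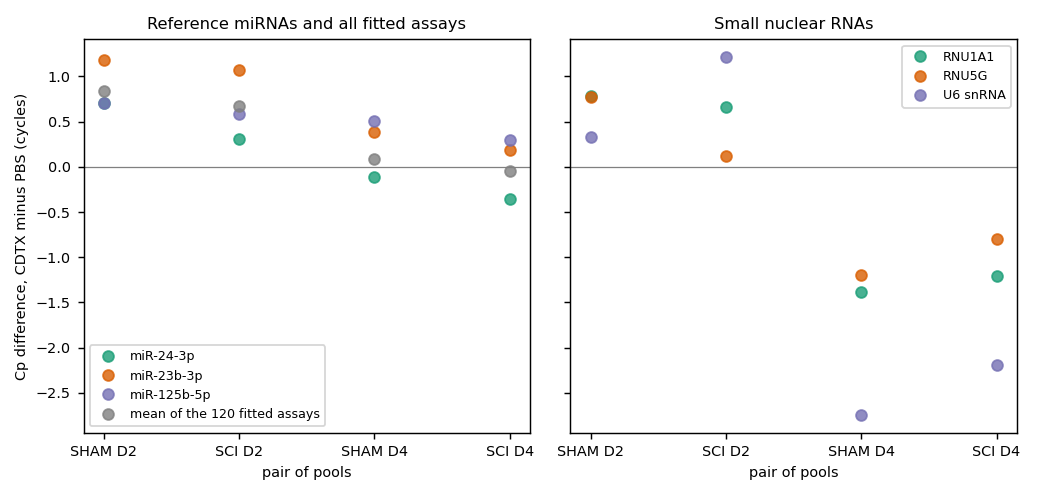
Difference in Cp between the CDTX and the PBS pool of each pair (y axis, cycles, below 0 means more template with CDTX) for the 3 reference miRNAs and the mean of the 120 fitted assays (left) and for the 3 small nuclear RNAs (right). The references differ by -0.36 to 1.18 cycles, and all 3 small nuclear RNAs are above 0 in both D2 pairs and below 0 in both D4 pairs.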

How the data were processed

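miRNAs were quantified in 8 RNA pools, 4 PBS and 4 CDTX, by RT with the miRCURY LNA kit and SYBR Green qPCR on a mouse and rat miRNome panel. The authors deposited Cp values per assay and pool, a log2 scale that runs downward, found as the second derivative maximum and not normalized. The deposited normalized values are a ratio per assay and pool, and a test on the values showed 4 references behind them (miR-125b-5p, miR-24-3p, miR-23a-3p and miR-16-5p, averaged as Cp). They served only as an alternative. A further deposited table holds the authors' own fold changes and was not used. The methods name the LightCycler software for the Cp and Genorm for the choice of references. RT-qPCR gives no read depth, and precision is limited by 1 pool per condition and by Cp values near 32.

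Relative levels used the mean Cp of the 3 references of the methods. Contrasts were fitted in limma 3.58.1 (R 4.3.3) with lmFit and eBayes, the pair of surgery and day as block, Benjamini-Hochberg adjustment over 120 assays, and interaction terms for day and surgery. Pairs come from the surgery and day in the labels. Paired pools deviated from their group means with correlations of 0.05 to 0.25 across assays. The fit was tested on simulated data. Pool values were compared by exact sign-flip permutation (Python 3.11.15). Assays were matched to target sequences of the study's panel list (699 by name, 51 by place in the list), and names to RefSeq. Named are the 12 highest and 12 lowest called assays, called list members, ends of seed families with at least 3 assays, called or 5 top interaction assays and the 8 largest bounds of assays within the limit on 1 side. Members and lists were chosen with earlier results of these data known. Alternatives changed the reference, the Cp limit (30, 34, none), the assays per miRNA, the block, the variance model, the fold rule and the pairs used.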

Additional observations from a re-analysis of the deposited data

Results flagged for a closer look

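Among 156 groups of 4 pools (78 assays with either injection), 7 held a pool that stood apart by Dixon's criterion. The 4 pools of a group differ in surgery and day. Chance gives about 1 in 20 groups for assays chosen without regard to their values. Here the assays were named by their values and let-7f-5p was added outside the naming rule, so the count cannot be set against chance. let-7f-5p in the CDTX + SHAM pool of D2 had a log2 level of -10.28, against -2.20 to -1.90 in the other CDTX pools. let-7f-5p in the PBS + SCI pool of D4 was at -1.71, against -1.54 to -1.51. miR-223-3p on the rat-named assay was at -5.57 in the PBS + SCI pool of D2, against -5.31 to -5.26. miR-195-5p was at -4.62 in the PBS + SCI pool of D4, against -4.45 to -4.42. let-7e-5p was at -4.12 in the PBS + SHAM pool of D2, against -4.79 to -4.68. miR-18a-5p was at -4.09 in the CDTX + SCI pool of D2, against -3.59 to -3.52. miR-221-3p was at -6.99 in the PBS + SCI pool of D4, against -6.73 to -6.69.

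For 10 miRNAs the log2 ratio of CDTX over PBS differed between the days by the interaction test in limma. The difference of D4 minus D2 was 2.59 for miR-206, 1.92 for miR-34a-5p, 1.61 for miR-362-3p, 1.42 for miR-379-5p, 1.29 for miR-532-3p, 1.28 for miR-199a-5p and 1.09 for miR-127-3p. It was -1.45 for miR-150-5p, -1.28 for miR-10b-5p and -1.09 for miR-126-3p.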

How the results depend on the processing

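The count of 86 called assays was 46 of 58 with a Cp limit of 30, 123 of 191 with 34 and 213 of 749 with no limit, where assays at 36 in both pools of a pair take the difference of the references. Without the pair as replicate block it was again 86, and without 1 pair it ranged from 72 to 85. The called changes of at least 2-fold (51) became 27 with a Cp limit of 30, 80 with 34, 166 with none, 78 at 1.5-fold and 22 at 3-fold, and 45 to 58 without 1 pair. Of the 24 assays with the largest changes, 0 lost the call without a pair, 4 (miR-17-5p, miR-19a-3p, miR-20a-5p and the rat-named miR-532-5p) with the small nuclear RNAs, and miR-1-3p with the ordinary variance.

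The 10 differences between the days became 4 with the global mean, 0 with miR-24-3p, 24 with miR-23b-3p, 44 with miR-125b-5p, 58 with Cp as deposited, 27 with the deposited ratios, 98 with the small nuclear RNAs, 16 with no Cp limit, 1 with both interactions in the fit, 32 with a variance trend, 0 with the ordinary variance and 0 to 22 without 1 pair. Differences between the surgeries stayed at 0, except for 1 with no Cp limit and 1 without the SHAM D4 pair (0 to 1 without 1 pair). The cause was not tested.

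Reversals were listed only for the assays followed singly, 65 for the mean log2 ratio, and within these all came with the small nuclear RNAs. That reference was chosen after seeing the data, as were the interaction fits without 1 pair. Of all 41 assays called higher, 28 kept a positive sign with it. Outside the set other references turned signs too, as for miR-23a-3p (-0.16 with miR-24-3p alone). With the small nuclear RNAs the mean log2 ratio turned to -0.39 for miR-16-5p, -0.46 for miR-27a-3p, -0.24 for miR-125a-5p and -0.45 for let-7e-5p. The difference of D4 minus D2 turned to -0.35 for miR-199a-5p, -0.017 for miR-362-3p, -0.34 for miR-532-3p, -0.54 for miR-127-3p and -0.21 for miR-379-5p.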
